A study of Sus scrofa with 8 samples.

Results

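Olfactory receptor genes were read out in the olfactory epithelium of newborn piglets with and without a functional CFTR gene, which encodes the anion channel that is defective in cystic fibrosis. A gene was taken as a member where the symbol paired with its identifier had the form of an olfactory receptor name, such as OR13G1. This gave 71 genes of the 25880 pig genes in the count table. Of these, 13 belonged to class I, with 11 in family 51 and 2 in family 52, and 58 to class II, in 13 families. Symbols were available for 14857 of the pig genes, and 11023 had none, so the 71 genes are the named part of the pig receptor repertoire and not the whole of it.

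Bulk mRNA sequencing covered 8 libraries, each labelled as a different newborn piglet. The 4 wild-type piglets carried the numbers 5, 9, 12 and 23, and the 4 CFTR knock-out piglets the numbers 6, 18, 20 and 21. The null allele, sex and litter were not given in the labels, and no other treatment was named for either group. Library totals ran from 30836904 to 43253395 counts, of which the receptors took 1718 to 6037. CFTR itself stood at 34.0 to 56.5 CPM (read counts relative to library size, scaled between libraries by the TMM method) in wild-type and 5.24 to 8.37 CPM in knockout libraries. Of 22 listed markers of mature olfactory neurons, 19 were matched, while OMP, CNGB1 and STOML3 were not matched and are not analysed here. None of the 19 was at 0 in any library, which at this depth is a weak check of the tissue label. Over the 8 libraries CNGA2 ran from 231.2 to 512.2 CPM and SLC8A3 from 0.919 to 16.1 CPM.

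Olfactory receptors are G protein-coupled receptors of the cilia of olfactory sensory neurons, where a bound odorant raises cyclic AMP through the G protein GNAL and the adenylate cyclase ADCY3. Each mature neuron expresses a single receptor gene from a single allele, and the gene family sits in clusters along the chromosomes. Class I receptors are the kind shared with fish and lie together in a single locus in mammals, while class II receptors are typical of land vertebrates. Neurons that chose a given receptor are confined to a zone of the epithelium, and in rodents class I neurons lie mostly in its dorsal zone. In bulk tissue, fewer neurons with a receptor and less receptor RNA per neuron cannot be told apart.

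The labels and file headers used here name no genome build for the coordinates. Of the 71 genes, 64 lay on 10 chromosomes and 7 on 5 unplaced scaffolds. Joining members at most 1 Mb apart gave 23 clusters, of which 12 held a single member and 5 held at least 5 members, 45 in all. The largest was on chromosome 9 from 2630813 to 5476589, with all 13 class I genes and the 2 class II genes OR2D2 and OR6A2. Another on chromosome 9, from 50613023 to 51292142, held 8 class II genes. The others were on chromosome 7 from 77517445 to 79342275 (9 genes), on chromosome 4 from 91015550 to 91981079 (8 genes) and on chromosome 2 from 56314661 to 56862978 (5 genes). The gene models were 870 to 1225 bases long with a median of 948, and in 70 of 71 the length was a multiple of 3, so they cover coding length and hold little or no untranslated sequence. Reads in untranslated exons would then not be counted. Reads shared by near-identical receptors cannot be assigned with certainty, so values of single receptors are uncertain. The strand setting of the counting was not stated either, which bears on the 2 receptors that overlapped another gene.

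Nearly all named receptors were transcribed at low level. A receptor was taken as detected in a library with at least 3 counts, and 54 of the 71 were detected in all 8 libraries. Wild-type piglets 5, 9, 12 and 23 had 61, 62, 68 and 70 detected receptors, and knockout piglets 6, 18, 20 and 21 had 68, 64, 68 and 68. The ranges overlapped, and the 2 lowest numbers belonged to wild-type piglets 5 and 9. When each library was brought to the smallest library total by calculation, the expected numbers were 59.1 to 67.2 in wild-type and 61.8 to 67.6 in knockout piglets. OR5D18, a class II gene on an unplaced scaffold, had 0 reads in every library. Another 12 genes had a mean of under 10 counts, from 2.0 for OR51C1P, whose symbol marks a pseudogene, to 9.5 for OR10D3. Among them were the class I genes OR51E1, OR51A7, OR51F1 and OR51T1, and OR51E1, the neighbour and closest relative of OR51E2, had 2 to 13 counts in wild-type and 8 to 23 counts in knockout libraries.

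Per kilobase of coding length, the median receptor stood at 0.913 CPM per kb over the 8 libraries, and 33 of 71 exceeded 1 CPM per kb. The most abundant was OR13G1 (ENSSSCG00000023700, chromosome 2 from 56402657 to 56403577, plus strand) at 12.7 CPM per kb, followed by OR10K2 (chromosome 4) at 5.88, OR5AP2 (unplaced scaffold) at 4.25 and OR13C4 (chromosome 1) at 4.08. OR13C3, OR8D4, OR5C1, OR51E2, OR51I1 and OR4E1 completed the first 10, at 2.95 to 2.38 CPM per kb. OR13G1 took 12.6% of all receptor CPM and these 10 genes 44.2%. The class I median was 0.377 and the class II median 0.989 CPM per kb. Within class I the order was OR51E2 (2.80 CPM per kb), a receptor also known from prostate and activated by short-chain fatty acids, then OR51I1 (2.44), OR52W1 (1.56), OR51S1 (1.17) and OR52R1 (0.8287). The spread between libraries was wider than the steps between neighbours in this order, as the plot of levels by gene shows.

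**Figure D1:**
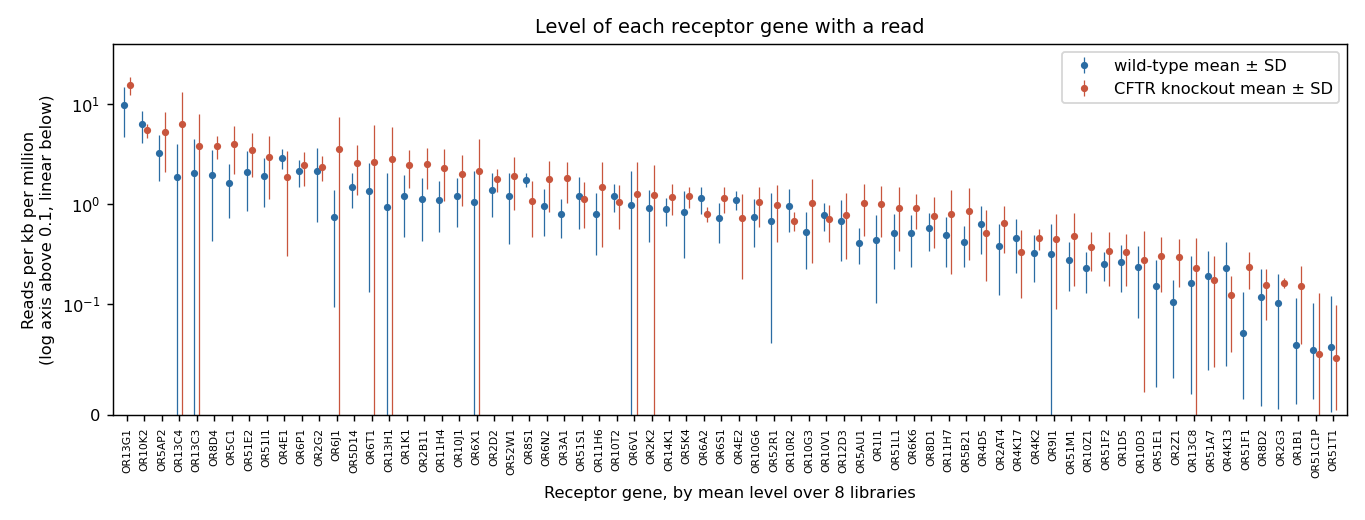
Level per kilobase of coding length of the 70 receptor genes with a read, in CPM per kb (log axis above 0.1, linear below), as mean ± SD of 4 wild-type and 4 CFTR knockout libraries, in the order of the mean over all 8. OR13G1 leads at 12.7 CPM per kb, the median over all 71 genes is 0.913, and the SD bars of the 2 genotypes overlap in most genes.

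OR13G1 was counted 192, 313, 622 and 270 times in wild-type piglets 5, 9, 12 and 23 and 717, 619, 563 and 469 times in knockout piglets 6, 18, 20 and 21. Scaled to library size this was 4.62, 9.90, 15.0 and 6.28 CPM in wild-type and 16.3, 17.2, 12.8 and 11.1 CPM in knockout piglets. Piglets 12 (wild-type), 6 and 18 (knockout) had the high values, and the groups overlapped. OR10K2, the second in abundance, did not follow the same order of libraries. It stood at 4.47, 6.80, 8.44 and 3.95 CPM in wild-type and 5.99, 4.07, 5.20 and 5.37 CPM in knockout piglets, so the wild-type range enclosed the knockout range. OR5AP2 was 1.83, 1.80, 4.28 and 4.56 CPM in wild-type and 3.42, 7.97, 1.57 and 6.88 CPM in knockout piglets. Its highest and its lowest library were both from the knockout group.

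The comparison of the genotypes asked whether receptor transcription differs without CFTR. Summed over the 71 genes, receptor reads made up 41.3, 78.15, 97.05 and 74.97 CPM in wild-type piglets 5, 9, 12 and 23, and 137.5, 107.6, 102.6 and 100.5 CPM in knockout piglets 6, 18, 20 and 21. All knockout sums lay above all wild-type sums, with the closest pair being knockout piglet 21 and wild-type piglet 12. The means were 72.9 CPM (SD 23.2) for the 4 wild-type and 112 CPM (SD 17.2) for the 4 knockout libraries, 1.54 times as high in the latter. No test is given for sums over the genes, because the set was chosen with results of these data known.

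The separation of the sums depended on the scale. By plain library total the groups overlapped, with 97.7 CPM as the highest wild-type and 96.8 CPM as the lowest knockout value. With each gene weighted equally, as the mean of log2(CPM + 0.1), wild-type libraries ran from -1.14 to -0.19 and knockout libraries from -0.36 to 0.12, and the groups overlapped. Without the 7 genes that varied most between libraries, described further on, the sums were 40.4 to 94.4 CPM in wild-type and 63.9 to 106.3 CPM in knockout piglets, again overlapping. The groups remained apart with the size factors of DESeq2 (41.1 to 96.9 against 100.6 to 138.2 CPM) and without OR13G1 (36.7 to 82.0 against 89.4 to 121.1 CPM).

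Class I genes summed to 4.30, 7.53, 11.5 and 10.3 CPM in wild-type and 12.5, 15.1, 5.61 and 16.9 CPM in knockout piglets, a ratio of means of 1.49. Knockout piglet 20 was below 3 of the 4 wild-type libraries. Class II genes summed to 37.0, 70.6, 85.6 and 64.6 CPM in wild-type and 124.9, 92.6, 97.0 and 83.6 CPM in knockout piglets, a ratio of 1.54. The groups overlapped through wild-type piglet 12 and knockout piglet 21. Without OR13G1 the class II sums were apart, with at most 70.6 CPM in wild-type and at least 72.5 CPM in knockout libraries. By the other scales and selections of genes tried, they overlapped. The class I share of receptor counts was 10.4%, 9.64%, 11.8% and 13.8% in wild-type and 9.11%, 13.98%, 5.46% and 16.8% in knockout piglets. The group means of this share, 11.4% and 11.3%, were close, and the knockout libraries held both the lowest and the highest value.

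**Figure D2:**
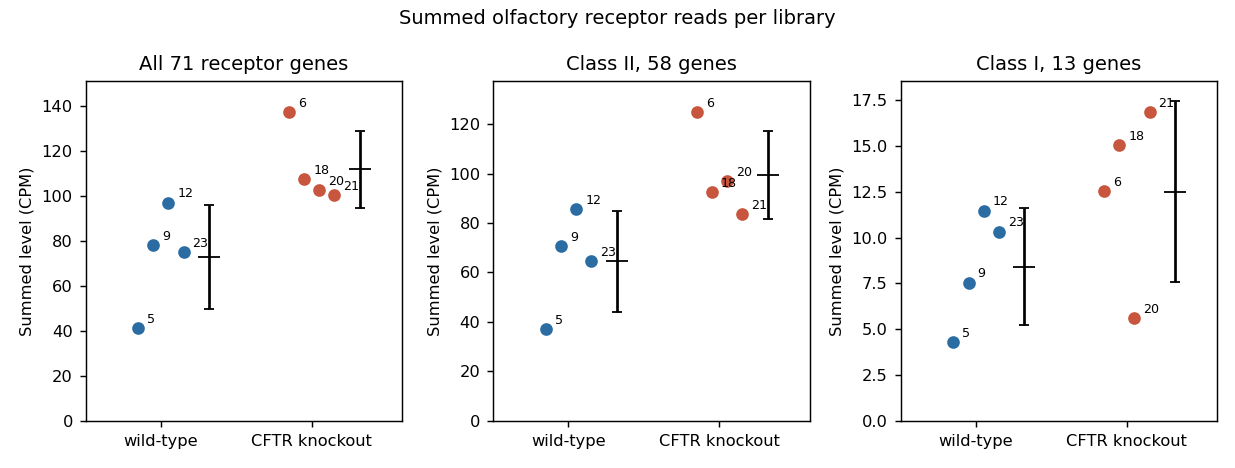
Summed receptor level per library in CPM for all 71 genes, the 58 class II genes and the 13 class I genes, with 1 point per piglet, labelled by its number, and the mean ± SD of each group (n = 4) as a bar beside it. The sums of all genes do not overlap (at most 97.05 CPM in wild-type, at least 100.5 CPM in knockout), while those of class I and class II do.

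No family and no genomic cluster had sums that separated the genotypes. Family 13, which holds OR13G1, OR13C3 and OR13C4, summed to 4.90, 22.6, 16.4 and 11.75 CPM in wild-type and 42.03, 18.03, 36.64 and 11.75 CPM in knockout piglets. Family 5 summed to 5.14, 4.49, 11.5 and 9.47 CPM in wild-type and 11.9, 21.2, 5.72 and 17.9 CPM in knockout piglets. These 2 families were thus each high in different knockout piglets, 6 and 20 for family 13, and 18 and 21 for family 5. Family 4 was the only family whose mean was lower in knockout libraries, at a ratio of 0.70, with 4.01, 5.70, 6.04 and 5.63 CPM in wild-type and 5.03, 0.975, 6.29 and 2.77 CPM in knockout piglets. Among the 5 large clusters the ratio of means ran from 1.095 for the cluster on chromosome 4 to 1.70 for the class II cluster on chromosome 9. The class I cluster stood at 6.03, 10.6, 14.4 and 12.3 CPM in wild-type and 15.5, 16.9, 7.77 and 19.8 CPM in knockout piglets, with a ratio of 1.38.

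Markers of the neurons that carry the receptors were set beside the sums. The 19 mature neuron markers summed to 6631, 8616, 11660 and 9172 CPM in wild-type and 10580, 8751, 10120 and 11130 CPM in knockout piglets, a ratio of 1.13 with overlapping groups. Wild-type piglet 5 was lowest, as for the receptors, but wild-type piglet 12 was highest, and knockout piglet 18 lay below wild-type piglets 12 and 23. Divided by the sum of these markers, the receptor sums were 1.40 times as high on average in knockout libraries, and the groups overlapped. GFY and GNB1, the markers with the most CPM, had edgeR log2 fold changes of 0.10 and 0.21. CNGA2, GNAL, RIC8B and ADCY3 stood at 0.48, 0.44, 0.44 and 0.39, against a log2 ratio of 0.62 for the receptor sums. S100A5, KIRREL2 and UMODL1 were negative, at -0.51, -0.40 and -0.07. The ratio to the markers thus depends on the markers summed, and other choices were not tested. Of the 19 markers, 16 had a positive log2 fold change with a median of 0.21, and edgeR, DESeq2 and limma each called 0, with an unadjusted edgeR p under 0.05 in 4 of 19 higher and 1 lower (5.4% and 5.8% of all genes tested). Of the 16 genes for receptor export and choice, 13 had a positive log2 fold change, with a median of 0.13. The same tools called 0 of them. An unadjusted edgeR p under 0.05 was found in 1 of 16 higher and 0 lower, against the same shares. The list shares ADCY3 and EBF2 with the mature neuron markers. The gene higher at this p was ADCY3, already counted among the 4 of 19. The 10 immature neuron markers summed to 5251 to 6678 CPM in wild-type and 6042 to 6776 CPM in knockout libraries, a ratio of 1.05. Of these, edgeR and limma called 0, and DESeq2 called 1 as higher in knockout, against 0.57% of all genes. The called gene was HDAC9, a histone deacetylase named here after its values were seen (edgeR adjusted p = 0.33). An unadjusted edgeR p under 0.05 was found in 1 of 10 higher and 0 lower, against 5.4% and 5.8% of all genes. HDAC9 was 39.8 to 46.1 CPM in wild-type and 49.5 to 80.1 CPM in knockout libraries. Knockout values lay wholly above wild-type values in 2.45% of all genes. RTP1, the chaperone that carries receptors to the cell surface, was 304, 402, 441 and 466 CPM in wild-type and 553.7, 437.5, 407 and 492 CPM in knockout piglets, overlapping. LHX2, a transcription factor needed for receptor expression, was 227, 301, 292 and 319 CPM in wild-type and 316, 289, 314.5 and 338 CPM in knockout piglets, overlapping as well. The part of these genes in the receptor sums was not tested beyond this ratio.

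Other cell types differed between libraries too. The 7 matched bone and connective tissue markers of 8, among them COL1A1 and IBSP, summed to 1519 to 4892 CPM in wild-type and 1005 to 41490 CPM in knockout libraries, the highest being knockout piglet 18. Without that piglet the log2 ratio of the receptor sums was 0.64, against 0.62 with all libraries. The class II ratio was 0.66 against 0.63, and the class I ratio 0.47 against 0.57. The median log2 fold change over the tested receptors was 0.56 without it and 0.66 with all libraries. The 3 matched red blood cell markers of 4 ran from 34.4 to 118.3 CPM in wild-type and from 77.2 to 295.6 CPM in knockout libraries, the 5 matched sustentacular markers of 7 from 1673 to 2290 and from 1400 to 1819 CPM, and the 5 respiratory ciliated markers from 225 to 297.9 and from 231.2 to 305.6 CPM. The part of these markers in the receptor values was not tested.

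Gene by gene, no receptor passed the test. The filter on low counts kept 58 of the 71 genes, 8 of class I and 50 of class II, and the 13 others had a mean of at most 9.5 counts. The quasi-likelihood test of edgeR called 0 receptors at a Benjamini-Hochberg adjusted p of 0.05 over all genes, and the smallest adjusted p among them was 0.41. Over all 17175 genes tested it called 0.00582%, which was CFTR alone. DESeq2 also called 0 receptors (smallest adjusted p = 0.207), against 0.57% of all genes higher and 0.899% lower in knockout. Limma with sample quality weights called 0 as well (smallest adjusted p = 0.113), against 0.064% of all genes.

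At an unadjusted edgeR p under 0.05, 3 receptors were higher in knockout, where the background over all genes was 5.4%, and 0 were lower, where it was 5.8%. With 3 of 58, the higher receptors were near that background. In 0 receptors did the 4 knockout values lie wholly above the 4 wild-type values, which 2.45% of all genes did, and in 0 wholly below, which 3.36% of all genes did. The log2 fold change of knockout to wild-type was positive in 47 of 58 receptors, or 81.0%, against 51.6% of all genes tested. It was positive in 40 of 58 by limma with sample quality weights, and in 42 of 60 by edgeR without wild-type piglet 5 and knockout piglet 18. Its median was 0.66 over the receptors and 0.01 over all genes, with a range from -0.69 to 2.26. Without these 2 piglets the median over the receptors was 0.33. In class I the fold change was positive in 7 of 8 (median 0.63) and in class II in 40 of 50 (median 0.67). Receptors varied together over the libraries, as described further on, so these are not counts of independent genes.

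The spread between animals was wide for these genes. The median standard error of the log2 fold change was 0.52 for receptors and 0.16 for all genes. The biological coefficient of variation, the spread between animals of a group beyond counting error, had a median of 50.97% over the receptors and 18.8% over all genes. Genes of like level were also more variable. Among the 1739 genes between the quartiles of receptor abundance (0.69 to 1.87 CPM), the median was 38.3%, and it was 49.3% for the receptors within those limits. OR10K2 had the smallest coefficient, 29.1%, and OR13C4 the largest, 123%.

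**Figure D3:**
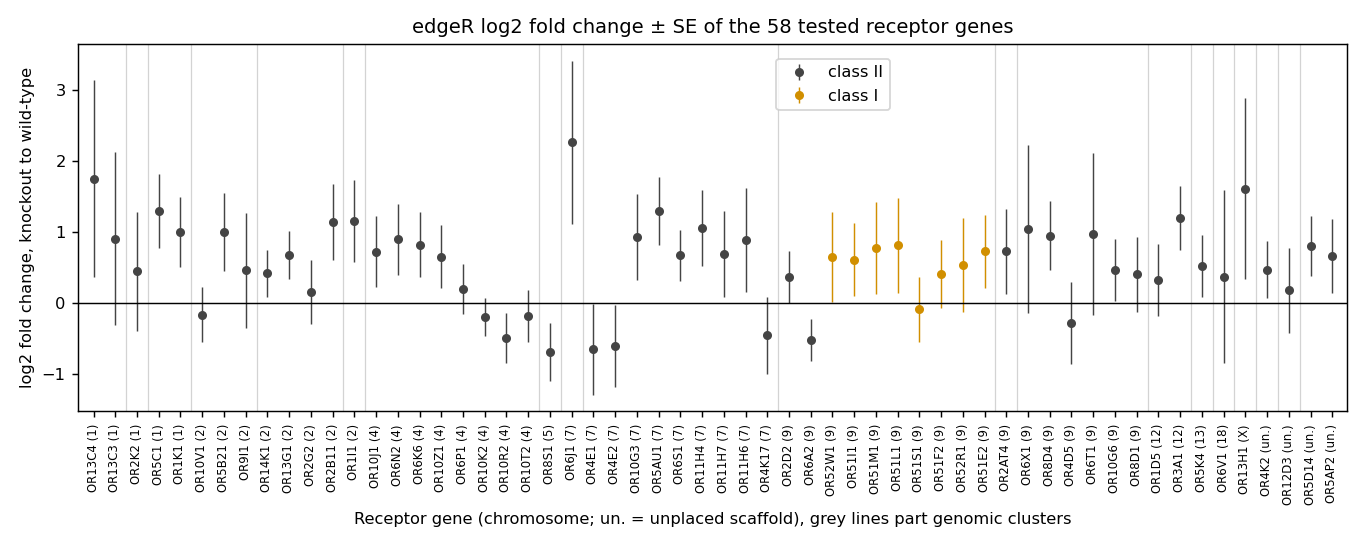
Log2 fold change of knockout to wild-type with its SE from edgeR for the 58 tested receptor genes, in chromosomal order with grey lines between genomic clusters, class I in yellow and class II in grey. Values are positive in 47 of 58 genes, their median is 0.66, and none passed the test.

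The 5 receptors with the smallest p on the higher side were OR5AU1, OR3A1, OR5C1, OR2B11 and OR1K1, all of class II. OR3A1 (chromosome 12), whose human counterpart responds to the floral odorant helional, was 0.505, 0.475, 1.14 and 0.861 CPM in wild-type and 1.73, 2.26, 0.661 and 2.25 CPM in knockout piglets. Knockout piglets 6, 18 and 21 exceeded all wild-type libraries and piglet 20 lay among them. Its log2 fold change was 1.201 ± 0.45 (SE, edgeR adjusted p = 0.41). OR5AU1 (chromosome 7) was 0.360, 0.222, 0.604 and 0.465 CPM in wild-type and 0.706, 1.59, 0.433 and 1.40 CPM in knockout piglets, with piglet 20 once more inside the wild-type range. Its log2 fold change was 1.30 ± 0.48 (SE, edgeR adjusted p = 0.41).

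OR5C1 and OR1K1 lie 6773 bases apart on chromosome 1 and had the same order of libraries within each genotype. OR5C1 was 0.961, 0.918, 2.78 and 1.63 CPM in wild-type and 3.94, 5.29, 1.12 and 5.13 CPM in knockout piglets. OR1K1 was 0.697, 0.506, 2.08 and 1.33 CPM in wild-type and 2.30, 3.20, 1.003 and 2.79 CPM in knockout piglets. In both genes wild-type piglet 12 was the highest wild-type library and knockout piglet 20 the lowest knockout library. The log2 fold changes were 1.29 ± 0.52 and 1.003 ± 0.50 (SE, edgeR adjusted p = 0.42 and 0.46). OR2B11 (chromosome 2) was 0.336 to 1.81 CPM in wild-type and 1.12 to 3.29 CPM in knockout libraries (log2 fold change 1.15 ± 0.53, edgeR adjusted p = 0.45).

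On the lower side the 5 smallest p belonged to OR6A2, OR8S1, OR10R2, OR4E2 and OR4E1. OR6A2, the counterpart of the rodent receptor for octanal, was 0.913, 1.61, 0.846 and 1.12 CPM in wild-type and 0.911, 0.585, 0.798 and 0.828 CPM in knockout piglets. Knockout piglet 6 was the library that overlapped the wild-type range, and the log2 fold change was -0.52 ± 0.29 (SE, edgeR adjusted p = 0.51). OR4E1 and OR4E2, 9785 bases apart on chromosome 7, were both lowest in knockout piglet 18. OR4E1 was 1.85, 3.04, 3.07 and 3.16 CPM in wild-type and 1.96, 0.195, 3.69 and 1.21 CPM in knockout piglets. OR4E2 was 1.06, 1.33, 0.798 and 0.977 CPM in wild-type and 0.956, 0.111, 1.23 and 0.402 CPM in knockout piglets. Knockout piglet 20 was the highest knockout library for both, and the log2 fold changes were -0.65 ± 0.64 and -0.61 ± 0.58 (SE, edgeR adjusted p = 0.68 and 0.67). Single libraries moved these values: they were -0.28 and -0.27 without knockout piglet 18, and -1.30 and -1.06 without knockout piglet 20. OR8S1 and OR10R2 had log2 fold changes of -0.69 ± 0.40 and -0.49 ± 0.35 (SE, edgeR adjusted p = 0.51 and 0.58). OR8S1 was at -0.45 without knockout piglet 18 and -1.06 without knockout piglet 20, OR10R2 at -0.13 without wild-type piglet 12, and OR6A2 at -0.29 without wild-type piglet 9.

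Other tested receptors are given here for the large clusters on chromosomes 4, 7 and 2. Fold changes of the remaining clusters are shown in the plot of fold changes and not all are listed. On chromosome 4, OR6N2 (0.90 ± 0.49), OR6K6 (0.82 ± 0.46), OR10J1 (0.72 ± 0.50) and OR10Z1 (0.66 ± 0.44) had positive log2 fold changes (± SE), OR6P1 (0.20 ± 0.35) lay near 0, and OR10K2 (-0.20 ± 0.26), OR10T2 (-0.19 ± 0.37) and OR10R2 were negative. This cluster therefore held both signs, and its sum had the ratio closest to 1 among the large clusters. On chromosome 7, OR11H4 (1.06 ± 0.54), OR10G3 (0.93 ± 0.61), OR11H6 (0.89 ± 0.73), OR11H7 (0.69 ± 0.60) and OR6S1 (0.67 ± 0.36) were positive, and OR4K17 (-0.45 ± 0.55) was negative like OR4E1 and OR4E2. OR11H4 was 0.577, 0.633, 1.72 and 1.37 CPM in wild-type and 2.004, 3.40, 0.661 and 2.93 CPM in knockout piglets, with piglet 20 inside the wild-type range. On chromosome 2, OR13G1 (0.68 ± 0.34), OR14K1 (0.42 ± 0.33) and OR2G2 (0.15 ± 0.45) were positive beside OR2B11. The edgeR adjusted p of the genes given here with a value ran from 0.46 to 0.90.

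Among the leading class I genes, OR51E2 (ENSSSCG00000014764, chromosome 9 from 5432611 to 5433570, plus strand) was 0.793, 1.33, 3.51 and 2.44 CPM in wild-type and 3.26, 3.98, 1.25 and 4.92 CPM in knockout piglets. OR51I1 was 1.06, 1.83, 1.26 and 3.12 CPM in wild-type and 1.59, 4.71, 1.09 and 3.74 CPM in knockout piglets. Both were highest in knockout piglets 18 and 21 and low in knockout piglet 20. OR52W1 stood at 0.336 to 2.20 CPM in wild-type and 0.410 to 2.72 CPM in knockout libraries, and OR52R1 at 0.190 to 1.48 and 0.296 to 1.55 CPM. OR51S1 differed from them in its order of libraries, with 0.961, 2.25, 0.701 and 1.19 CPM in wild-type and 1.91, 0.697, 1.39 and 0.757 CPM in knockout piglets, so that piglets 9 and 6 were highest. Its neighbour OR51F2, 7928 bases away, was instead highest in knockout piglet 18. Groups overlapped in all of these genes.

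Receptor levels varied widely over the 8 libraries. Over the 58 receptors with a mean of at least 10 counts, the highest library exceeded the lowest by a median of 4.87 times on the log2(CPM + 0.1) scale, against 1.64 times over all 17213 genes with as many counts and 2.98 times over genes within the receptors' abundance quartiles. In 7 receptors, or 12.1%, the range exceeded 16 times, which held for 1.07% of all genes and 3.15% of those of like abundance. These 7 were OR13C4, OR13C3, OR13H1, OR6T1, OR6X1, OR6J1 and OR6V1, with OR6V1 just inside this limit at 17.2 and OR4E1 just outside at 12.9. They belonged to families 13 and 6 and lay on chromosomes 1, 7, 9, 18 and X.

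OR13C4 (ENSSSCG00000026768, chromosome 1 from 245856180 to 245857133, minus strand) had 6, 142, 15 and 94 counts in wild-type piglets 5, 9, 12 and 23, and 501, 5, 535 and 9 counts in knockout piglets 6, 18, 20 and 21. OR6J1 (chromosome 7) had 9, 53, 15 and 33 counts in wild-type and 274, 6, 335 and 12 counts in knockout piglets. OR13H1 (X chromosome) had 2, 74, 12 and 33 counts in wild-type and 249, 4, 191 and 8 counts in knockout piglets. In each of these genes knockout piglets 6 and 20 were highest, wild-type piglets 9 and 23 came next, and the other 4 libraries were low. OR6V1 (chromosome 18) followed with 8, 78, 4 and 40 counts in wild-type and 113, 2, 87 and 3 counts in knockout piglets. OR6X1 (chromosome 9) had 6, 76, 17 and 43 counts in wild-type and 184, 1, 156 and 11 counts in knockout piglets. OR6T1 (chromosome 9) had 4, 81, 22 and 86 counts in wild-type and 329, 11, 91 and 11 counts in knockout piglets.

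Together the 7 genes made up 0.937, 21.5, 2.64 and 9.96 CPM in wild-type and 45.8, 1.28, 38.7 and 1.54 CPM in knockout piglets. The log2 fold changes of these genes depended on the tool. All 7 were positive by edgeR and DESeq2, by edgeR from 0.37 ± 1.22 (SE) for OR6V1 to 2.26 ± 1.15 for OR6J1 (edgeR adjusted p of 0.47 to 0.91), while by limma with sample quality weights 5 of 7 were negative, with a range from -0.88 for OR6V1 to 0.76 for OR6J1. The 2 highest sums were from knockout libraries, and each genotype held 2 libraries under 3 CPM.

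**Figure D4:**
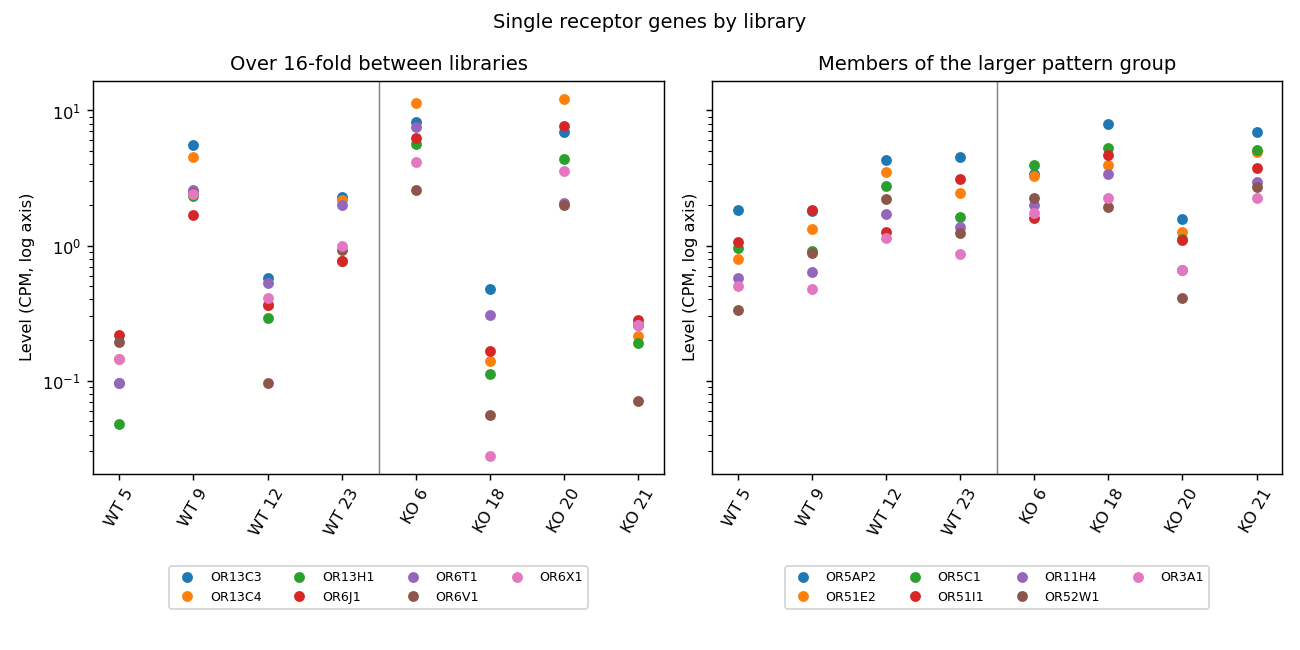
Level in CPM (log axis) of single receptor genes in each of the 8 libraries, with the 7 genes of the widest range on the left and 7 genes of the larger pattern group on the right, 1 point per gene and library. On the left, knockout piglets 6 and 20 and wild-type piglets 9 and 23 are high for all 7 genes. The genes on the right were picked after their values were seen. For each of them knockout piglet 20 is below knockout piglets 18 and 21. In the larger group as a whole, piglet 20 was the lowest knockout library in 30 of 38 genes.

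The 58 receptors were sorted by their pattern over the 8 libraries into 2 groups, by average linkage on the correlation of log2(CPM + 0.1). The groups rest on the same values that describe them, so the following is a description. The larger group held 38 genes, 7 of class I and 31 of class II, from 14 clusters. The highest knockout library was piglet 18 in 23 of them and piglet 21 in 10, and the lowest was piglet 20 in 30. It summed to 23.9, 32.3, 68.7 and 43.9 CPM in wild-type and 67.4, 94.2, 38.6 and 83.7 CPM in knockout piglets. The smaller group held 20 genes from 11 clusters, with OR51S1 as its class I gene and all 7 genes of the widest range. The highest knockout library was piglet 6 in 11 of them and piglet 20 in 9, and the lowest was piglet 18 in 15 and piglet 21 in 5. It summed to 16.7, 44.9, 26.0 and 29.4 CPM in wild-type and 67.9, 11.5, 61.9 and 14.7 CPM in knockout piglets. In the pair of knockout piglets 18 and 20, the larger group was thus high where the smaller was low and the reverse. By edgeR the log2 fold change was positive in 38 of 38 genes of the larger group (median 0.71). In the smaller group it was positive in 9 of 20 (median -0.12).

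**Figure D5:**
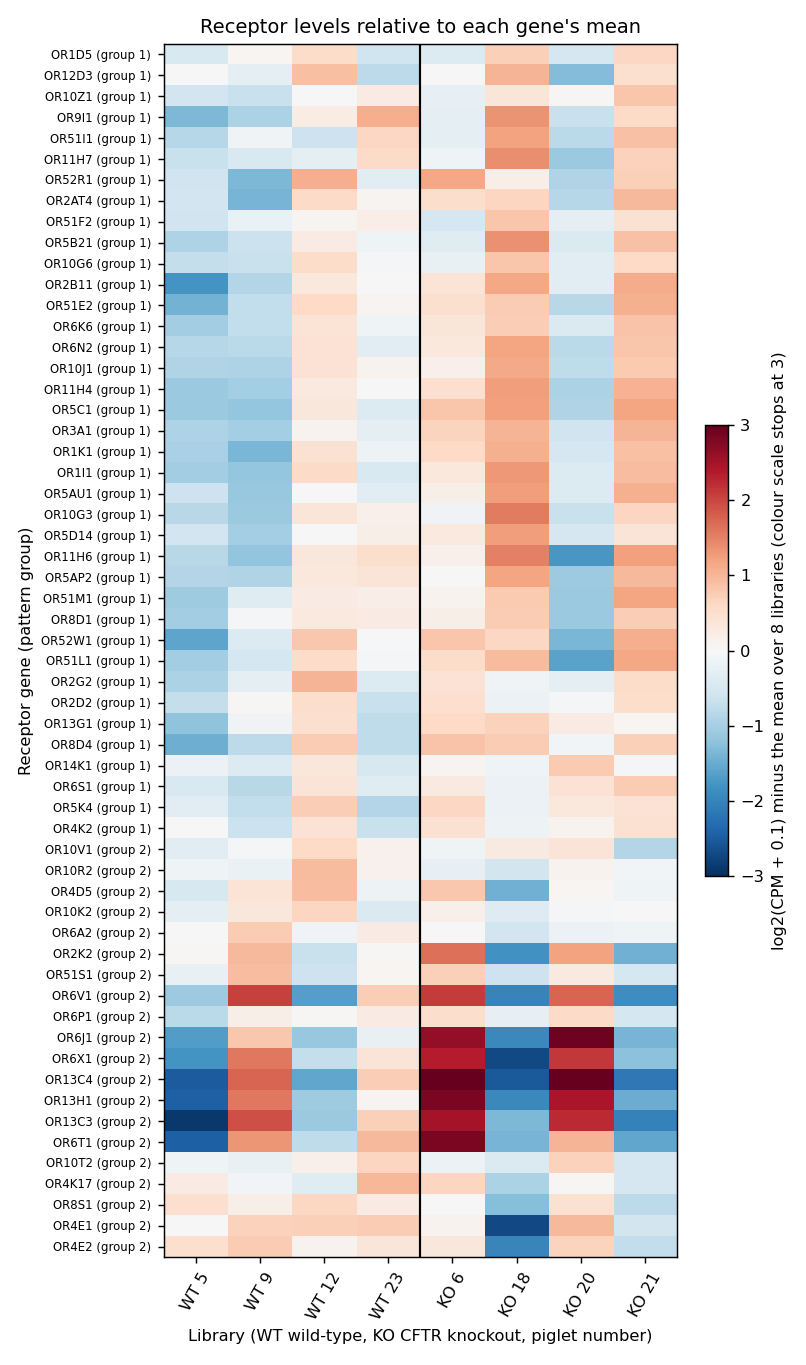
Heat map of log2(CPM + 0.1) minus each gene's mean over 8 libraries for the 58 receptors with a mean of at least 10 counts, with libraries as columns, genes as rows in the order of their clustering and the colour scale stopping at 3. The larger group (38 genes) has its highest sums in knockout piglets 18 and 21, followed by wild-type piglet 12 and knockout piglet 6. The smaller group (20 genes) has its highest sums in knockout piglets 6 and 20, followed by wild-type piglet 9. The 7 genes of the widest range make up 45.8 of 67.9 CPM in knockout piglet 6 and 38.7 of 61.9 CPM in knockout piglet 20.

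Genes of both patterns lay in the same clusters. Of the 5 large clusters, 4 held genes of both groups. In the class II cluster of chromosome 9, OR6X1, OR6T1 and OR4D5 belonged to the smaller group and OR8D4, OR8D1 and OR10G6 to the larger. OR6T1 and OR4D5 lay 6538 bases apart. OR8D4 was 0.769, 1.30, 3.96 and 1.33 CPM in wild-type and 4.24, 3.96, 2.19 and 3.85 CPM in knockout piglets, while OR6X1, 99168 bases away, was 0.144, 2.405, 0.411 and 1.0 CPM in wild-type and 4.19, 0.028, 3.55 and 0.26 CPM in knockout piglets. These genes were thus alike in knockout piglet 6 and opposite in knockout piglet 18. On chromosome 4 the larger group held OR10J1, OR6N2, OR6K6 and OR10Z1, and the smaller group OR6P1, OR10K2, OR10R2 and OR10T2. OR13C4 and OR13C3, 40945 bases apart on chromosome 1, were in the same group.

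Families were divided between the 2 groups as follows, where the larger group held 38 of the 58 genes. All 3 tested family 11 genes, all 3 of family 1 and all 6 of family 5 were in the larger group. So were 7 of 8 tested class I genes. Family 2 had 4 genes in the larger group and 1 in the smaller. Most families held few tested genes, and a link of family and pattern was not tested. In family 6, 6 of 9 tested genes were in the smaller group, as were 3 of 4 in family 13 and 4 of 5 in family 4. Family 10 was split evenly, 4 and 4.

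Zone markers of the epithelium, a list drawn up after the receptor counts were seen, were set beside the patterns. The dorsal genes NQO1, ACSM4, ROBO2 and SEMA3F summed to 323, 353, 487 and 406 CPM in wild-type and 449, 565, 355 and 536 CPM in knockout piglets. The larger receptor group and this sum were both highest in knockout piglets 18 and 21 and had their lowest knockout value in piglet 20. Its members differed among themselves. NQO1, an enzyme of dorsal neurons, was 130.6, 165.4, 74.05 and 225.7 CPM in knockout piglets 6, 18, 20 and 21, and ACSM4 was 83.6, 186.1, 50.1 and 106.5 CPM, both lowest in piglet 20. The axon guidance receptor ROBO2 was instead lowest in piglet 18, at 152.9, 130.1, 140.4 and 132.7 CPM, and the guidance ligand SEMA3F was highest in piglet 20, at 82.1, 82.9, 90.3 and 71.5 CPM. The 5 ventral genes NCAM2, NRP2, NFIA, NFIB and NFIX summed to 527, 345, 384 and 357 CPM in wild-type and 397, 447, 503 and 325 CPM in knockout piglets. NCAM2, an adhesion molecule of ventral neurons, was 74.05, 38.95, 99.9 and 57.8 CPM in knockout piglets 6, 18, 20 and 21, highest in piglet 20 and lowest in piglet 18. NRP2, a semaphorin co-receptor, was 208.4, 296.6, 263.5 and 165.2 CPM, highest in piglet 18 and lowest in piglet 21. The transcription factors NFIA, NFIB and NFIX were highest in piglet 20, and NFIA and NFIX were lowest in piglet 21 and NFIB in piglet 18. The part of zone in the receptor patterns was not tested.

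The pattern of OR13C4 was shared by genes without a name. Among the 30 genes whose levels followed it most closely over the 8 libraries, 5 were members and 18 were unnamed genes with a single exon of 870 to 1100 bases, the size of a receptor. Members made up 0.337% and such unnamed genes 5.54% of the 17213 genes ranked. For OR51E2, of the larger group, 4 of the nearest 30 were members and 16 were such unnamed genes. A single gene with another name stood among the 30 of OR13C4, the sulfotransferase SULT6B1, which is named here after its values were seen. SULT6B1 was 2.12, 67.8, 8.05 and 15.2 CPM in wild-type and 83.6, 4.35, 105.1 and 3.52 CPM in knockout piglets, high in the same libraries as OR13C4.

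Unnamed single-exon genes of receptor size were found near the clusters as well. There were 456 of them within 1 Mb of a cluster, with a median of 0.805 CPM per kb, and their lengths were all multiples of 3; whether they encode receptors was not tested. They summed to 321.9, 437.3, 586.8 and 443.5 CPM in wild-type and 640.4, 560.7, 525.5 and 599.0 CPM in knockout piglets, a ratio of means of 1.30. Wild-type piglet 5 was lowest and knockout piglet 6 highest, as for the 71 named receptors, but here wild-type piglet 12 overlapped the knockout group. Of these genes, 393 were tested and 295 had a positive log2 fold change, with a median of 0.56. Their biological coefficient of variation had a median of 49.8%, and 19 of the 398 with a mean of at least 10 counts, or 4.77%, varied over 16 times between libraries. For the named receptors the corresponding share was 12.1%, and the difference between these shares was not tested.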

How the data were processed

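The deposited values are whole-number counts of reads for each gene, not scaled, and the columns per the file headers are those of featureCounts output. Tools listed in the submitters' processing notes, whose order and role are not stated, are STAR 2.4.0, Subread 1.5.0-p3 with featureCounts, HTSeq, FastQC and DESeq2. Members and lists were chosen with earlier results of these data known. Receptors were taken by symbol and identifier, and descriptions and sequences were not used here. All pig genes were fitted together with edgeR 4.0.16 in R 4.3.3, with genotype as the factor. The fit used TMM, the default filter on low counts, the quasi-likelihood test and Benjamini-Hochberg adjustment over all tested genes at 0.05. The script was first tested on simulated data, where all genes had the same spread, smaller than the median of the receptors. That trial does not show how well changes in receptors would be found. DESeq2 1.42.0, limma 3.58.1 with voom, other size factors and filters, and the omission of libraries were alternatives. Standard errors come from the F statistic. Patterns used log2(CPM + 0.1). A further 5988 rows that are not pig genes were left out.

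Named genes were the 10 receptors of most reads per kb, the 5 of most in class I, the most abundant of each cluster of at least 5 members, and the 5 with the smallest edgeR p in each direction. The genes of the widest range, their neighbours, pattern examples and zone markers were chosen after their values or the receptor counts were seen. With 4 piglets a group, p-values set the difference between genotypes against the spread between animals.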

Additional observations from a re-analysis of the deposited data

Results flagged for a closer look

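Among 50 sets of 4 libraries checked, of the sums, the numbers detected and the named receptors, 2 held a library far from the other 3 of its group. Chance sets about 1 in 20 such groups apart. Knockout piglet 18 had 64 detected receptors, where the other knockout piglets each had 68. OR4E1 was 1.85 CPM in wild-type piglet 5 and 3.04 to 3.16 CPM in the other wild-type piglets.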

How the results depend on the processing

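edgeR, DESeq2 and limma called 0 receptors in all 15 fits run, and the smallest adjusted p lay between 0.0942 (edgeR without wild-type piglet 12) and 0.762 (edgeR without wild-type piglet 9). The median log2 fold change of the receptors was positive in each fit and fell to 0.33 without wild-type piglet 5 and knockout piglet 18, from 0.66 with all libraries. Leaving out single libraries gave medians of 0.46 to 0.83. The log2 ratio of the summed levels stayed positive, at 0.43 to 0.79 when single libraries were left out, the class I ratio at 0.36 to 0.82, or 0.26 without both of the piglets named, and the class II ratio at 0.43 to 0.79. Without the 7 genes of the widest range, an alternative chosen after seeing the data, it was 0.49 for all receptors. Naming receptors by identifier alone was the rule already used, so that alternative gave no separate value. No paired analysis was possible because the labels give no litter or other pairing of the piglets. Depth limits the 13 genes with a mean of at most 9.5 counts, for which no fold change is given.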
